A study of Homo sapiens with 6 samples.

Results

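The matrix metalloproteinases (MMP), the ADAM and ADAMTS proteases and their natural inhibitors, the TIMPs, were followed in A375 cells, an established human melanoma line, after exposure to fluvastatin. The genes were taken by symbol, as MMP, ADAM, ADAMTS or TIMP followed by a number and at most 1 letter, which gave 56 of the 29790 genes in the deposited table, namely 19 MMP, 16 ADAM, 17 ADAMTS and 4 TIMP genes. Of the 6 libraries, 3 came from cells treated with 3 µM fluvastatin for 24 h and 3 from cells labelled as controls. Fluvastatin is a statin, an inhibitor of the mevalonate pathway. A375 is a single cancer line, and the labels speak of triplicates without naming separate cultures, so the spread behind every p-value is that of these libraries and may be technical. In a bulk sample, fewer cells carrying a transcript and less of it per cell cannot be told apart.

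MMPs are zinc-dependent enzymes that cut collagens and other matrix proteins, either secreted or held at the cell surface. ADAMs are membrane proteins, several of which release the outer parts of growth factors, receptors and adhesion molecules, while ADAMTS enzymes are secreted and process proteoglycans and procollagens. TIMPs bind to the active site of these enzymes, and in melanoma the balance between the enzymes and TIMPs is best known for its part in invasion.

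Values are FPKM, a unit scaled to transcript length and library size, so levels can be compared between genes. Absolute depth is not known for such values, but the steps between low values gave relative depths of 1.27, 1.51 and 1.4 for fluvastatin replicates 0, 1 and 2 and of 1, 1.18 and 0.97 for control replicates 0, 1 and 2. Every fluvastatin library was deeper than every control library, so depth and treatment cannot be told apart. Of 11 melanoma markers 9 were in the table, all but MLANA and TYR. Of these 9, 3 (PMEL, DCT and S100B) stayed under 1 FPKM in every library. AXL had the highest level, at 318 ± 11.2 FPKM in treated and 335 ± 12.6 FPKM in control cells (SD, n = 3 each). MITF averaged 6.68 ± 0.505 and 7.18 ± 0.556 FPKM, whereas the pigment cell gene PMEL was at 0.395 ± 0.102 and 0.593 ± 0.270 FPKM. Of the 5 melanoma markers tested 2 rose, SOX10 (72.0 ± 4.33 FPKM in treated and 23.3 ± 2.99 FPKM in control cells) and NGFR (25.8 ± 1.85 and 16.8 ± 2.05 FPKM), and 1 fell, SOX9 (24.1 ± 0.946 and 41.8 ± 0.271 FPKM), and their part in the results was not tested. Of 13 markers of leukocytes, endothelium, epithelium and fibroblasts 10 were in the table, none was at 0 in all libraries and 9 stayed under 1 FPKM in every library. Their summed level ran from 41.7 to 46.4 FPKM in treated and from 26.3 to 30.9 FPKM in control libraries. Nearly all of it was CD68, a lysosomal protein of macrophages and other cells (43.2 ± 2.18 FPKM in treated and 27.4 ± 2.57 FPKM in control cells), and its part in the results was not tested.

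Among the members that could be tested, MMP1, MMP14, MMP19, TIMP1, TIMP2, ADAM8, ADAM17, ADAM19, ADAMTS1, MMP16 and ADAM23 rose after fluvastatin, and ADAMTS3 fell. A gene was tested where it reached 1 FPKM in at least 3 of the 6 libraries, with limma on log2(FPKM + 1) over all 14344 such genes, and it is said to have risen or fallen at a Benjamini-Hochberg adjusted p below 0.05. Of the 24 members tested, 11 rose, 1 fell and 12 did not pass, beside a background of 14.1% of all tested genes that rose and 13.6% that fell. The median log2 fold change of the 24 was 0.30, against -0.01 over all tested genes. In 15 of the 24 members every fluvastatin library lay above every control library and in 1 every one lay below, where the shares over all tested genes were 21.9% and 22.9%. MMP1 and MMP19 passed the filter only through their fluvastatin libraries and so had to differ. With the relative depth of each library added to the fit as a covariate, MMP1 was the only member still past the threshold (adjusted p = 0.0495), and over all genes 49 rose and 12 fell. In that fit the log2 fold change was 1.13 for MMP14, 0.65 for TIMP2, 0.71 for TIMP1, 0.63 for ADAM17 and 1.46 for ADAM8, against 1.08, 0.71, 0.88, 0.49 and 0.93 without depth. It was 0.74 for MMP19, 0.14 for MMP2, 0.08 for TIMP3 and -0.26 for ADAM22, against 0.88, 0.26, 0.26 and -0.57.

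**Figure D1:**
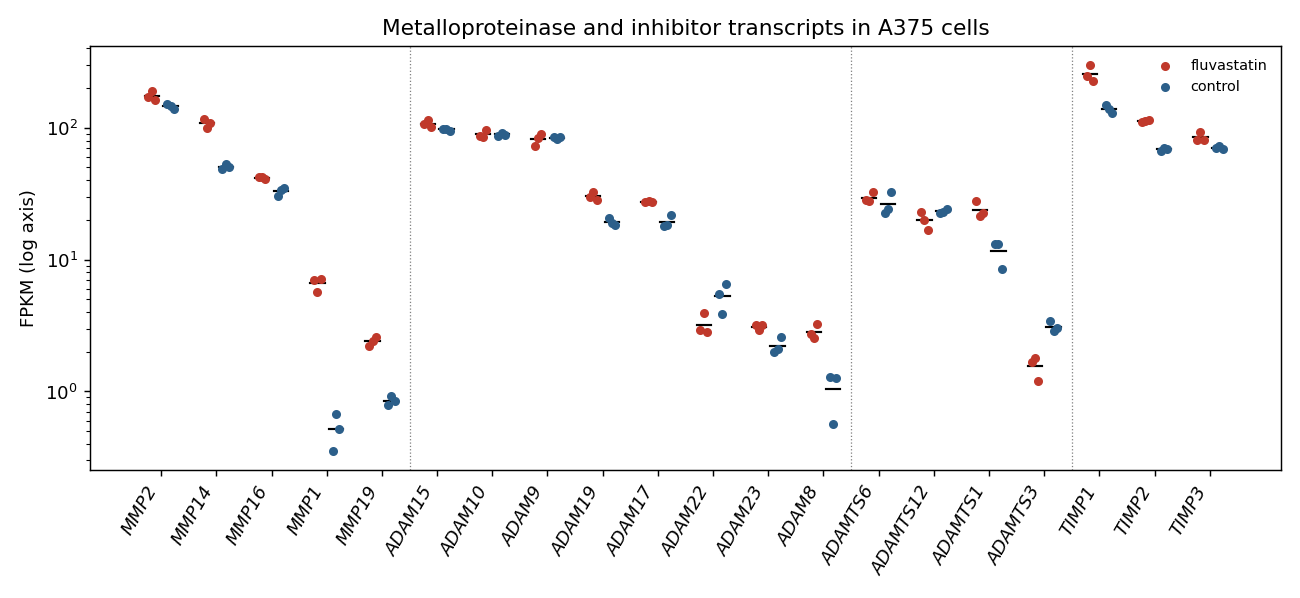
FPKM (log axis) of the 20 members that rose, fell or averaged at least 5 FPKM in either group. Points are libraries, 3 per group, and bars are group means. MMP1 showed the widest gap between groups, while ADAM10 and ADAM9 overlapped.

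The collagenase MMP1, which cuts intact fibrillar collagen, showed the largest change of any tested member. MMP1 was at 7.0, 5.66 and 7.12 FPKM in the fluvastatin libraries and at 0.354, 0.675 and 0.522 FPKM in the control libraries. All treated libraries lay far above all control libraries, which were under 1 FPKM. It averaged 6.59 ± 0.809 FPKM in treated and 0.517 ± 0.161 FPKM in control cells, a 12.8-fold difference, with a log2 fold change of 2.32 ± 0.12 (SE; limma adjusted p = 0.000198). MMP1 could be tested in this fit only because it was higher in treated cells. In the fit without a filter on low values its adjusted p was 0.00128 (limma). MMP1 (ENSG00000196611.4) lies on chromosome 11 at 102789920 to 102798160 of GRCh38, minus strand. Its share of the summed MMP level was 1.95% ± 0.268 in treated and 0.220% ± 0.0666 in control cells, and MMP2, MMP14 and MMP16 together made up 95.8% ± 0.523 and 98.0% ± 0.283.

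MMP1 belongs to a cluster of MMP genes on chromosome 11, of which 7 were in the table, between 102576835 and 102955734, all on the minus strand. Only MMP1 passed the filter. Its neighbour MMP10, stromelysin-2, whose start is 17.5 kb from that of MMP1, was at 0.503, 0.455 and 0.561 FPKM in fluvastatin libraries and at 0, 0.0335 and 0 FPKM in control libraries. All treated libraries thus held the transcript at a low level, and 2 of 3 controls listed it at 0. In the fit without a filter on low values its log2 fold change was 0.57 ± 0.05 (limma adjusted p = 0.00339). MMP3, stromelysin-1, lies on the other side of MMP1, 45.6 kb from it. It was at 0.339, 0.344 and 0.449 FPKM in treated and at 0.334, 0.167 and 0.617 FPKM in control libraries, and the treated values lay within the range of the controls (log2 fold change 0.02 ± 0.13, adjusted p = 0.954 without a filter). The ratio of MMP1 to MMP3 was 20.6, 16.5 and 15.8 in treated and 1.06, 4.04 and 0.846 in control libraries. Of the other genes of the cluster, the collagenases MMP8 and MMP13, the macrophage elastase MMP12 and the enamel protease MMP20 did not exceed 0.158 FPKM in any library. WTAPP1, a pseudogene on the opposite strand that overlaps MMP10, MMP1 and MMP3, was at 0.399, 0.168 and 0.0366 FPKM in treated and at 0.183, 0.481 and 0.199 FPKM in control libraries, with overlap.

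**Figure D2:**
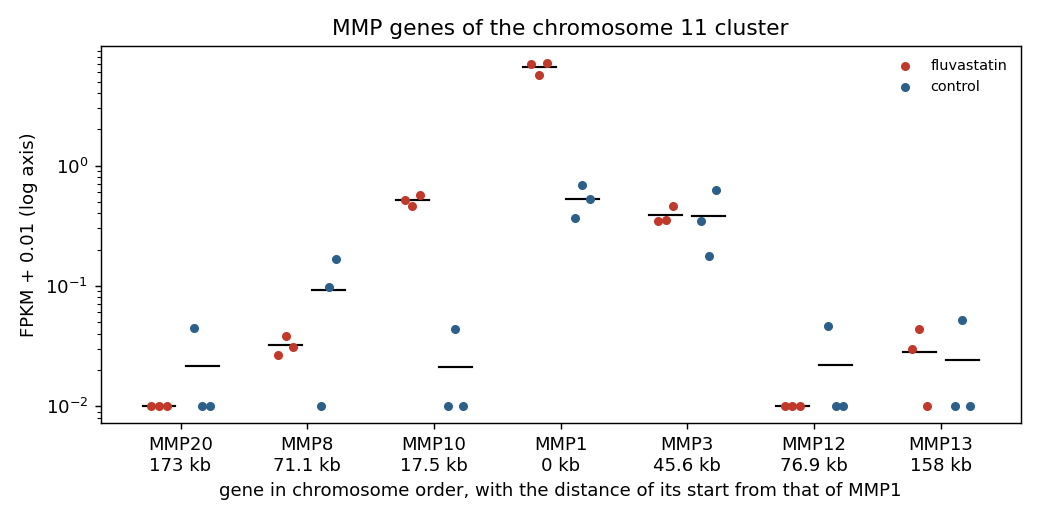
FPKM + 0.01 (log axis) of the 7 MMP genes of the chromosome 11 cluster in chromosome order, with the distance of each start from that of MMP1 in kb. Points are libraries and bars are group means. MMP1 and MMP10 stood higher in all 3 treated libraries, and MMP3 did not.

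MMP14 was the most abundant membrane-type MMP transcript, and it rose. MMP14 encodes MT1-MMP, a collagenase anchored in the plasma membrane that also activates the MMP2 proenzyme. It was at 116, 99.6 and 109 FPKM in fluvastatin libraries and at 48.6, 53.2 and 50.3 FPKM in control libraries, and the lowest treated value was well above the highest control. The fold was 2.14 and the log2 fold change 1.08 ± 0.09 (limma adjusted p = 0.000877). MMP14 (ENSG00000157227.12) lies on chromosome 14 at 22836557 to 22849027, plus strand. MMP16, MT3-MMP, was at 42.0, 42.3 and 40.9 FPKM in treated and at 30.6, 33.6 and 35.2 FPKM in control libraries. It rose 1.26-fold (adjusted p = 0.0351), a call that was lost without any single library other than control replicate 2 (0.0800 to 0.101) and with the replicate number as a block (0.0752). MMP17, a membrane protease with a lipid anchor, was at 1.37 ± 0.457 FPKM in treated and 1.56 ± 0.859 FPKM in control cells and did not pass (adjusted p = 0.839).

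MMP2, gelatinase A, which degrades basement membrane collagen once MT1-MMP and TIMP2 have activated it, was the most abundant MMP transcript in both groups. It was at 171, 189 and 163 FPKM in fluvastatin libraries and at 152, 147 and 138 FPKM in control libraries. The groups did not overlap, yet the 1.2-fold difference did not pass (adjusted p = 0.0896), and it passed with quantile normalization (0.0452) and with a trended, robust variance (0.0425), over a range of 0.0425 to 0.758. MMP19, a secreted MMP of wide expression, was at 2.21, 2.42 and 2.57 FPKM in treated and at 0.796, 0.921 and 0.843 FPKM in control libraries. The groups did not overlap, and the rise was 2.81-fold at a low level (adjusted p = 0.00125). TMEM198B, a pseudogene that overlaps MMP19 on the opposite strand, was at 11.3, 10.2 and 8.62 FPKM in treated and at 6.21, 6.42 and 6.89 FPKM in control libraries. Without a strand setting the reads of the overlap cannot be assigned. Of the 6 tested MMP genes 4 rose and 0 fell by limma, beside 14.1% and 13.6% of all tested genes, and 0 fell at an unadjusted p below 0.05. MMP1 and MMP19, which could be tested only because they were higher in treated cells, are 2 of these 4, and the other two are MMP14 and MMP16.

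Of the 3 tested TIMP genes 2 rose, TIMP1 and TIMP2, and 0 fell, beside 14.1% and 13.6% of all tested genes. TIMP1, an inhibitor of most secreted MMPs and a weak one of MT1-MMP, was at 247, 298 and 228 FPKM in fluvastatin libraries and at 149, 138 and 129 FPKM in control libraries. It was the most abundant TIMP in treated and in control cells. It rose 1.86-fold, with a log2 fold change of 0.88 ± 0.12 (adjusted p = 0.00419). TIMP2, which inhibits MMP2 and also bridges it to MT1-MMP for activation, was at 110.1, 113 and 115 FPKM in treated and at 67.2, 69.8 and 69.2 FPKM in control libraries. The spread within each group was small beside the 1.64-fold rise (log2 fold change 0.71 ± 0.08, adjusted p = 0.00172). TIMP3, a matrix-bound TIMP that also inhibits ADAM17, was at 80.8, 93.3 and 80.3 FPKM in treated and at 70.7, 72.3 and 68.8 FPKM in control libraries. The groups did not overlap, and the 1.2-fold difference did not pass (adjusted p = 0.0871), except with quantile normalization (0.0452) and a trended, robust variance (0.0459), over a range of 0.0452 to 0.858. TIMP4 was above 0 only in fluvastatin replicate 1, at 0.0311 FPKM. TIMP1 lies wholly within SYN1 and TIMP3 within SYN3, both on the opposite strand, and neither synapsin gene exceeded 0.108 FPKM in any library.

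The promoters of MMP14, TIMP1 and MMP10 are shown because these genes stood higher in every treated library and come from an abundant membrane protease, its inhibitor family and the low-level stromelysin beside MMP1. The sequences are the 250 bases before the RefSeq start (GRCh38.p14), read 5′ to 3′ on the strand of the gene. Capitals mark a GC box (GGGCGG or its reverse complement CCGCCC) or a TATA box (TATAAA or its reverse complement TTTATA).
MMP14, chr14:22836335-22836584, plus strand: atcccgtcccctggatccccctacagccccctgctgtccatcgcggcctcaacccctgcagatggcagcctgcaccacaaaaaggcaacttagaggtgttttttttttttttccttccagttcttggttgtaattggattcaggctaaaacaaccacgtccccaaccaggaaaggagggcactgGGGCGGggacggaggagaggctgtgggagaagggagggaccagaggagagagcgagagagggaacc
TIMP1, chrX:47582186-47582435, plus strand: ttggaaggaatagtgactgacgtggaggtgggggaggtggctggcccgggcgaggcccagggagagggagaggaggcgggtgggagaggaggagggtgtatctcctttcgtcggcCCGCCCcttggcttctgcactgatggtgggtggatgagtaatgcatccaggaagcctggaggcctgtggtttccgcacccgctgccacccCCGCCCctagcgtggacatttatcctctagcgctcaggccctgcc
MMP10, chr11:102780629-102780878, minus strand: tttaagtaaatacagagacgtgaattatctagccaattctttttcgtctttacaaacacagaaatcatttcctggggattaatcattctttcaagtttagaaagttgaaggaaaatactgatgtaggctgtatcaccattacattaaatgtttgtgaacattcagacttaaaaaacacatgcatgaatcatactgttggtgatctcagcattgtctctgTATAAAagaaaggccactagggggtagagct

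Counted back from -1 at the last base before the start, MMP14 held a GC box at -66 to -61, and TIMP1 held one on the opposite strand at -135 to -130 and another at -45 to -40. MMP10 held no GC box and a TATA box at -31 to -26. Of the 56 members 32 had a promoter entry, and MMP1, MMP2, MMP3, TIMP2 and ADAMTS1 were among those whose promoters were not analysed here. On either strand 25 of the 32 held a GC box, against 42.6% of the 35116 promoters in the table. A TATA box stood in 4 of the 32, those of ADAMTS10, MMP10, MMP20 and MMP8, against 10.7% of all. TGAGTCA or TGACTCA, the letters of an AP-1 element, stood in 0 of the 32 and in 4.20% of all promoters of this length. The motif matches did not overlap one another in the 3 promoters shown. A match of letters describes the sequence only.

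The transcripts of the MMP2 activation complex were also set against each other within each library. The ratio of MMP14 to TIMP2 was 1.06, 0.880 and 0.951 in fluvastatin libraries and 0.724, 0.762 and 0.727 in control libraries. The ratio of MMP2 to TIMP2 was 1.55, 1.66 and 1.42 in treated and 2.27, 2.11 and 1.99 in control libraries. For both ratios the groups did not overlap, with a higher MMP14 value and a lower MMP2 value per TIMP2 in treated cells. The ratio of MMP14 to TIMP1 was 0.470, 0.335 and 0.478 in treated and 0.325, 0.386 and 0.391 in control libraries, with overlap. The summed TIMP level was 455 ± 43.1 FPKM in treated and 278 ± 10.6 FPKM in control cells, and the summed MMP level was 339 ± 8.50 and 234 ± 6.27 FPKM. Their ratio was 1.34 ± 0.109 in treated and 1.19 ± 0.0271 in control cells. Each of 7 such ratios was compared with a two-sided exact permutation test, for which 0.10 is the smallest p that 3 libraries against 3 allow. The ratio of MMP14 to TIMP1 gave p = 0.30 and the other 6 gave p = 0.10 (exact permutation test, adjusted over the 7 to 0.30 and 0.12). These 6 were MMP14 to TIMP2, MMP2 to TIMP2, MMP14 to MMP2, summed TIMP to summed MMP, ADAM17 to ADAM10 and MMP1 to MMP3. MMP1 passed the filter only through its fluvastatin libraries, so the outcome of the last was known beforehand and adds no support.

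**Figure D3:**
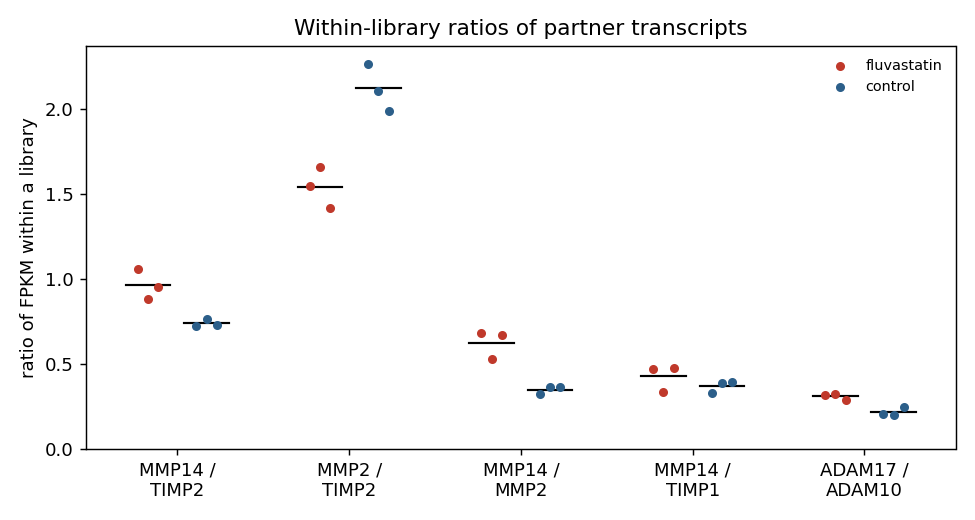
Ratios of FPKM within a library for 5 pairs of partner transcripts. Points are libraries, 3 per group, and bars are group means. The groups did not overlap for any pair except MMP14 over TIMP1.

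ADAM17, ADAM19, ADAM8 and ADAM23 rose, whereas the most abundant ADAM transcripts did not pass. ADAM10, the main constitutive sheddase of Notch and cadherins, was at 86.9, 85.4 and 96.2 FPKM in fluvastatin libraries and at 87.0, 91.4 and 88.7 FPKM in control libraries. The groups overlapped, with a log2 fold change of 0.01 ± 0.09 (adjusted p = 0.967). ADAM17, which sheds TNF and ligands of the EGF receptor, was at 27.4, 27.7 and 27.3 FPKM in treated and at 17.9, 18.2 and 21.9 FPKM in control libraries. Its treated values were tightly grouped above all controls, and it rose 1.42-fold (log2 fold change 0.49 ± 0.10, adjusted p = 0.0155). The ADAM17 call was lost without fluvastatin replicate 0 (0.0526) or control replicate 1 (0.0542), over a range of 0.00734 to 0.213. Per ADAM10 transcript, ADAM17 was at 0.316, 0.324 and 0.284 in treated and at 0.206, 0.199 and 0.247 in control libraries, again without overlap. ADAM17 (ENSG00000151694.12; chromosome 2, 9488486 to 9556732, minus strand) overlaps IAH1 on the opposite strand, which was at 22.9, 34.2 and 25.3 FPKM in treated and at 26.3, 18.7 and 27.0 FPKM in control libraries.

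ADAM19, meltrin beta, a protease of neuregulins, was at 30.0, 32.3 and 28.2 FPKM in fluvastatin libraries and at 20.6, 18.9 and 18.3 FPKM in control libraries. It rose 1.57-fold without overlap (log2 fold change 0.62 ± 0.09, adjusted p = 0.00524). ADAM8, a protease best known from leukocytes and invasive tumours, was at 2.74, 2.56 and 3.24 FPKM in treated and at 1.28, 0.569 and 1.27 FPKM in control libraries. The rise was 2.73-fold at a low level, with control replicate 1 the lowest of all (adjusted p = 0.00944). ADAM15, a widely expressed ADAM of cell adhesion, was at 107, 114 and 101 FPKM in treated and at 98.0, 98.4 and 94.8 FPKM in control libraries, and did not pass (adjusted p = 0.268). ADAM9, meltrin gamma, was at 73.2, 84.0 and 89.6 FPKM in treated and at 85.6, 82.0 and 84.7 FPKM in control libraries. Its groups overlapped (adjusted p = 0.822). ADAM15, ADAM10 and ADAM9 together made up 80.0% ± 0.814 of the summed ADAM level in treated and 84.2% ± 0.921 in control cells.

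Catalytically inactive ADAMs, which act as receptors of LGI proteins in neurons, were at low levels. ADAM23 was at 3.20, 2.93 and 3.19 FPKM in fluvastatin libraries and at 1.98, 2.10 and 2.58 FPKM in control libraries. It rose 1.4-fold (adjusted p = 0.0412), a call lost without any single library other than control replicate 2 (0.0758 to 0.118), without a filter (0.0552), with a trended, robust variance (0.0967) and with the replicate block (0.0675). ADAM22 was at 2.91, 3.91 and 2.81 FPKM in treated and at 5.48, 3.89 and 6.51 FPKM in control libraries. Fluvastatin replicate 1 lay just above control replicate 1, and the difference did not pass (adjusted p = 0.0616), except with quantile normalization (0.0413) or without control replicate 1 (0.0293), over a range of 0.0293 to 0.747. ADAM11, below the filter, was at 0.465, 0.208 and 0.391 FPKM in treated and at 1.28, 0.903 and 0.610 FPKM in control libraries. Of the 8 ADAM genes tested by limma 4 rose and 0 fell, beside 14.1% and 13.6% of all tested genes. Of these 8, 1, ADAM22, was lower at an unadjusted p below 0.05 in limma.

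**Figure D4:**
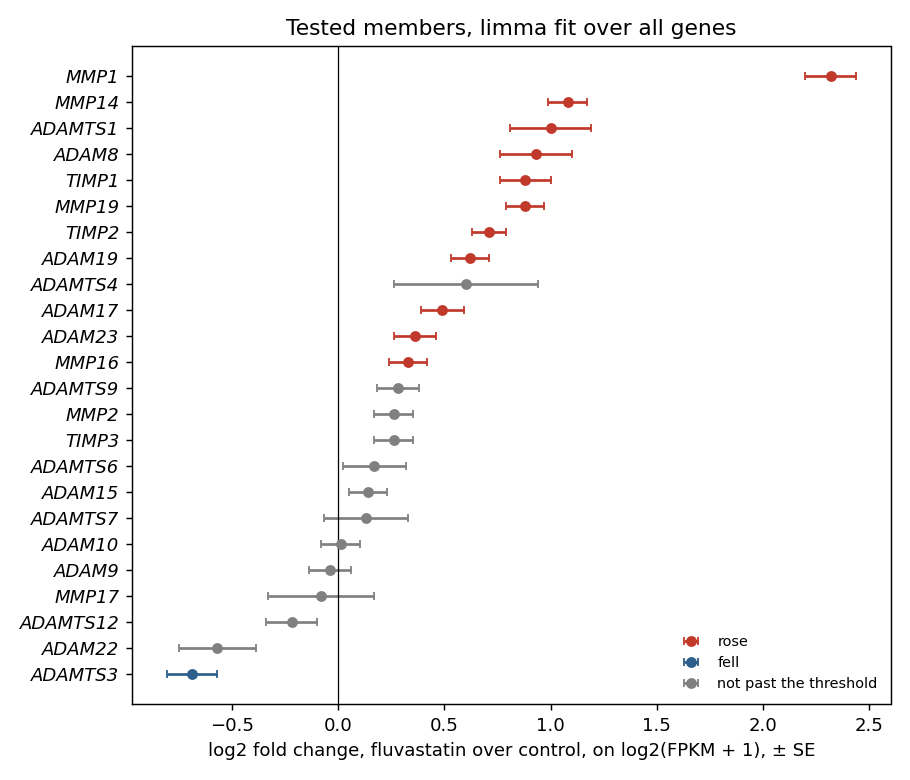
Log2 fold change of fluvastatin over control on the log2(FPKM + 1) scale, with its standard error, for the 24 tested members. Colours give those that rose (11), fell (1, ADAMTS3) or did not pass (12) at an adjusted p of 0.05, from limma over all 14344 tested genes.

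Of the 7 tested ADAMTS genes, ADAMTS1 rose and ADAMTS3 fell, and 1 of 7 each way is close to the 14.1% and 13.6% of all tested genes. ADAMTS1, which cleaves versican and aggrecan, was at 28.0, 21.5 and 22.4 FPKM in fluvastatin libraries and at 13.2, 13.1 and 8.49 FPKM in control libraries. It rose 2.07-fold, with a log2 fold change of 1.0 ± 0.19 (adjusted p = 0.0109). ADAMTS3, which removes the amino-terminal propeptide of procollagens and processes the lymphatic growth factor VEGFC, was at 1.67, 1.78 and 1.19 FPKM in treated and at 3.41, 2.85 and 3.01 FPKM in control libraries. It was the only tested member that fell, to 1.55 ± 0.312 FPKM in treated cells against 3.09 ± 0.290 FPKM in control cells (log2 fold change -0.69 ± 0.12, adjusted p = 0.00835). ADAMTS1 (ENSG00000154734.14) lies on chromosome 21 at 26835747 to 26845409 and ADAMTS3 (ENSG00000156140.9) on chromosome 4 at 72280969 to 72569386, both on the minus strand.

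ADAMTS6 and ADAMTS12, which with ADAMTS1 made up most of the summed ADAMTS level, did not pass. ADAMTS6, a protease linked to fibrillin microfibrils, was at 28.1, 27.7 and 32.5 FPKM in fluvastatin libraries and at 22.6, 24.1 and 32.4 FPKM in control libraries (adjusted p = 0.458). ADAMTS12, which cleaves cartilage oligomeric matrix protein, was at 22.8, 19.9 and 16.9 FPKM in treated and at 22.4, 23.0 and 24.2 FPKM in control libraries (adjusted p = 0.221). Both pairs of groups overlapped, in ADAMTS6 through control replicate 2 and in ADAMTS12 through fluvastatin replicate 0. ADAMTS4, an aggrecanase, was at 5.23, 4.62 and 1.78 FPKM in treated and at 1.53, 3.12 and 1.71 FPKM in control libraries. Fluvastatin replicate 2 sat among the controls (adjusted p = 0.240, and 0.0437 without it, over a range of 0.0437 to 0.925). ADAMTS7, a relative of ADAMTS12, averaged 1.90 ± 0.733 FPKM in treated and 1.59 ± 0.214 FPKM in control cells. ADAMTS9, a versican-cleaving enzyme, averaged 1.56 ± 0.138 and 1.11 ± 0.179 FPKM, without overlap and without passing (adjusted p = 0.0786).

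Below the filter lay 32 members, of which 7 were higher in every treated library than in any control library and 4 were lower, where these shares were 6.69% and 4.23% over all genes below the filter. The membrane-type MMP15 was at 0.873, 0.760 and 0.677 FPKM in fluvastatin libraries and at 0.469, 0.485 and 0.308 FPKM in control libraries. MMP24, another membrane-type MMP, was at 0.167, 0.206 and 0.141 FPKM in treated and at 0.0451, 0.0133 and 0.0465 FPKM in control libraries. The overlapping gene MMP24-AS1, on the opposite strand, was also higher, at 26.1, 28.5 and 23.9 FPKM in treated and 16.8, 14.9 and 15.6 FPKM in control libraries. MMP28, epilysin, was at 0.913, 0.767 and 0.310 FPKM in treated libraries and, in controls, above 0 only in replicate 0, at 0.0954 FPKM. It shares its locus with TAF15, on the opposite strand at 90.8 to 123 FPKM. MMP9, gelatinase B, stayed under 0.1 FPKM in every library, at 0.0485, 0.0629 and 0.0968 FPKM in treated and at 0.0304, 0.0278 and 0.0309 FPKM in control libraries. MMP10, described above, ADAM20 and ADAMTS16 were the other 3 that were higher throughout. Of these 7, only MMP10 passed in the fit without a filter. In that fit the limma adjusted p was 0.0509 for MMP28, 0.0552 for MMP15 and 0.0647 for MMP24. It was 0.302 for ADAMTS16, 0.425 for ADAM20 and 0.552 for MMP9.

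ADAMTS15, an aggrecan- and versican-cleaving enzyme, was at 0.303, 0.293 and 0.170 FPKM in fluvastatin libraries and at 0.623, 0.779 and 0.738 FPKM in control libraries. In the fit without a filter it was lower with an adjusted p of 0.0153 (limma, log2 fold change -0.45 ± 0.07). MMP25, a lipid-anchored MMP of leukocytes, was at 0, 0.0679 and 0.0554 FPKM in treated and at 0.244, 0.197 and 0.185 FPKM in control libraries (adjusted p = 0.0498 in that fit). MMP25-AS1, which overlaps it on the opposite strand, was also lower in every treated library, at 5.55, 5.71 and 5.03 FPKM in treated and 6.51, 7.12 and 6.26 FPKM in control libraries. ADAM11 and ADAMTS19 were the other members that were lower in every treated library, and neither passed in that fit (limma adjusted p = 0.104 and 0.115). Without a filter, 6.23% of 29790 genes rose and 5.52% fell. ADAMTS16 had 1 library far above the rest, with 0.535, 0.647 and 4.22 FPKM in treated and 0.285, 0.139 and 0.0603 FPKM in control libraries.

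The other 21 members below the filter overlapped between groups. Their highest values were 1.93 FPKM in fluvastatin replicate 2 for MMP11, stromelysin-3, and 1.55 FPKM in control replicate 1 for ADAM12, meltrin alpha. ADAM32, ADAM28, ADAMTS10, ADAMTS13, ADAMTS17, ADAMTS18, ADAMTS20, ADAMTS5, ADAM21 and MMP3 were above 0 in at least 4 libraries. MMP8, MMP12, MMP13, MMP20, MMP23B, ADAM18, ADAM1B, ADAMTS2 and TIMP4 did not exceed 0.202 FPKM anywhere. ADAM20 and ADAM21, and MMP23B with its tandem copy, are close relatives whose reads may have been shared between copies.

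**Figure D5:**
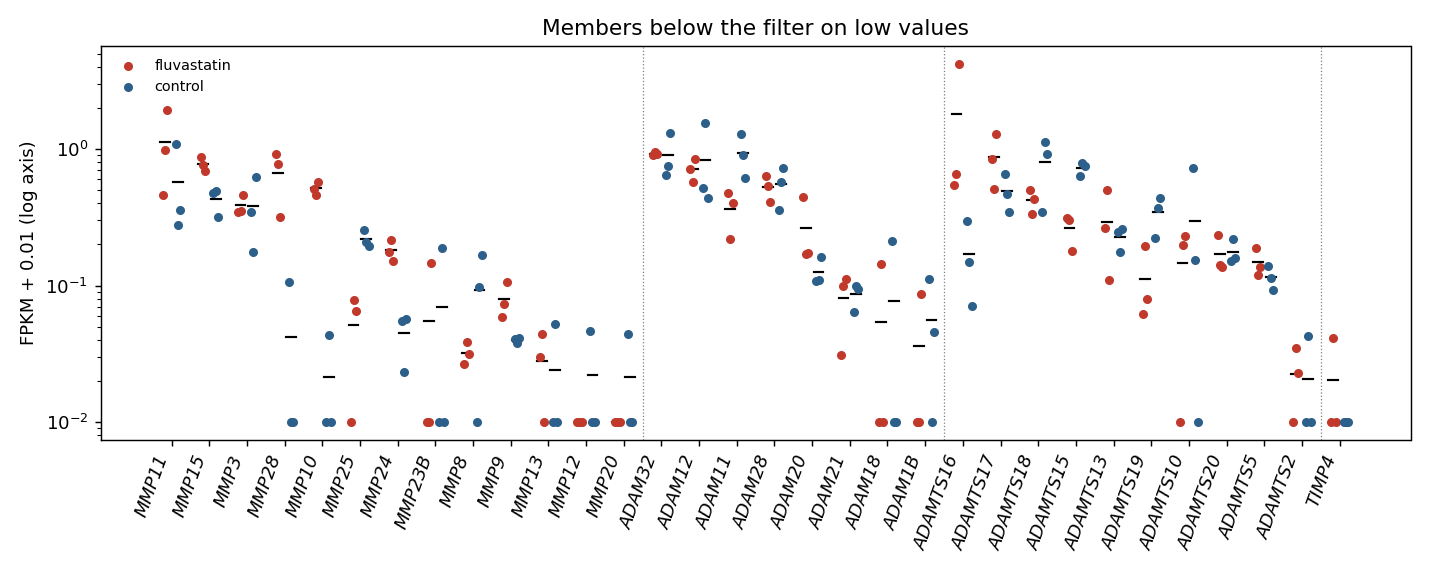
FPKM + 0.01 (log axis) of the 32 members below the filter. Points are libraries, 3 per group, bars are group means, and points at 0.01 are genes listed at 0. MMP10, MMP15, MMP24 and MMP28 stood higher in all treated libraries, and ADAMTS15 and MMP25 stood lower.

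Genes that activate, hold or block these proteases, related metzincins and substrates were examined as 5 lists in the same fit. The background for each list was the same 14.1% that rose and 13.6% that fell. Of 16 tested activators and surface partners, 8 rose and 2 fell, with a median log2 fold change of 0.38. Without fluvastatin replicate 1 or control replicate 0 only 5 rose, while the rises over all tested genes went from 2017 to 1388 and 1540. Without fluvastatin replicate 0 or 2 or control replicate 1, 1 fell. The falls over all tested genes went from 1954 to 1066, 1284 and 1245 in these fits. PLAT, tissue plasminogen activator, averaged 155 ± 11.7 FPKM in treated and 46.6 ± 1.35 FPKM in control cells and rose 3.34-fold (adjusted p = 0.000197). CD9, a tetraspanin partner of ADAM17, rose 2.44-fold (adjusted p = 0.000406). RHBDF1, the iRhom1 protein that carries ADAM17 to the cell surface, was at 19.6 ± 2.20 FPKM in treated and 9.02 ± 1.19 FPKM in control cells and rose 2.17-fold, while FRMD8, which stabilises iRhoms, rose 1.43-fold. The 2 that fell, named after their values were seen, were PLAU, the urokinase activator of plasminogen (1.43 ± 0.304 FPKM in treated and 5.32 ± 2.36 FPKM in control cells), and TSPAN14, a tetraspanin of ADAM10 (72.4 ± 2.45 and 92.8 ± 3.40 FPKM).

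A list of protease inhibitors other than TIMPs also held PCOLCE and PCOLCE2, enhancers of procollagen C-proteinase, and of its 8 tested genes 3 rose and 2 fell (median 0.25). CST3, the cysteine protease inhibitor cystatin C, rose 1.60-fold and SERPINE2, a serine protease inhibitor, rose 1.33-fold. The SERPINE2 call was lost without fluvastatin replicate 0 (0.0649) or 1 (0.0614) or control replicate 1 (0.0611). TFPI2, a Kunitz-type inhibitor of plasmin, fell to 21.1 ± 2.47 FPKM in treated cells, against 44.3 ± 3.27 FPKM in control cells (adjusted p = 0.00185). The other that fell, PCOLCE, named after its values were seen, was at 31.2 ± 3.09 FPKM in treated and 47.1 ± 8.21 FPKM in control cells (adjusted p = 0.0341). The PCOLCE call was lost without any single library other than control replicate 2 (0.0535 to 0.102), without a filter (0.0780) and with the replicate block (0.0830), which left 1 that fell. RECK, a membrane-anchored MMP inhibitor, was at 3.20 ± 0.282 and 3.42 ± 0.319 FPKM (adjusted p = 0.607).

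Of 8 tested ADAMTS-like and related metzincin genes, 5 rose and 0 fell by limma, beside 14.1% and 13.6% of all tested genes. At an unadjusted p below 0.05, 0 fell (median 0.52). Without control replicate 2, 3 rose, while the rises over all tested genes went from 2017 to 1785. Without a filter 3 also rose, where the share over all genes was 6.23%. BMP1, the procollagen C-proteinase, rose 1.83-fold. ADAMTSL1 rose 1.5-fold, THSD4 1.4-fold and ADAMTSL4 1.83-fold, all of them ADAMTS-like glycoproteins without a protease domain. The ADAMTSL4 call was lost without control replicate 0 (0.0598) or 2 (0.0544) and without a filter (0.0524). ADAMTSL5, named after its values were seen, was the fifth.

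Of 17 tested matrix substrates, 9 rose and 4 fell (median 0.41), beside 14.1% and 13.6% of all tested genes. Without fluvastatin replicate 0, 5 rose, while the rises over all tested genes went from 2017 to 1274. Without fluvastatin replicate 2 or control replicate 1, 2 fell, while the falls over all tested genes went from 1954 to 1284 and 1245. VCAN, the proteoglycan versican that ADAMTS1 cleaves, was at 18.1 ± 1.01 FPKM in treated and 6.90 ± 1.92 FPKM in control cells (2.62-fold, adjusted p = 0.0040). FN1, fibronectin, rose 2.25-fold and COL6A1, a chain of collagen VI, 2.02-fold. LAMA4, a laminin alpha chain, fell to 50.9 ± 2.70 FPKM in treated cells, against 74.9 ± 3.18 FPKM in control cells, and the others that fell, named after their values were seen, were COL1A1, COL4A1 and COL4A2.

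Of 21 tested transcripts whose proteins are shed by ADAM10 or ADAM17, 8 rose, 1 fell and 12 did not pass (median 0.05). Over all tested genes 14.1% rose and 13.6% fell. BTC, an EGF receptor ligand named after its values were seen, is 1 of the 8 and passed the filter only through its fluvastatin libraries, so it had to be higher. SDC4, a cell surface proteoglycan, was at 166 ± 7.04 FPKM in treated and 68.9 ± 0.536 FPKM in control cells (2.41-fold, adjusted p = 0.000337). IL6R, the interleukin-6 receptor chain, rose 3.21-fold, AREG, an EGF receptor ligand released by ADAM17, 1.79-fold and the adhesion molecule L1CAM 1.83-fold. CDH2, N-cadherin, named after its values were seen, was the one that fell (adjusted p = 0.0494), and it lay above the threshold under 13 of the 15 alternatives, over a range of 0.0229 to 0.275. With relative depth as a covariate none of the 20 companion genes chosen by smallest adjusted p passed, all keeping their direction.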

How the data were processed

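RNA-seq of A375 cells was compared between 3 fluvastatin and 3 control libraries, grouped by their labels. STAR, Cufflinks, Cuffdiff and the build hg38 are named in the submitters' processing notes, without roles or versions. The deposited values, 1 for each gene in each library, were taken as FPKM made by the authors, the unit that Cufflinks gives, since the file names none. The sources used here give no strand setting.

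FPKM were transformed to log2(FPKM + 1), genes at 1 FPKM or more in at least 3 of 6 libraries were kept, and limma 3.58.1 (R 4.3.3) was fitted with Benjamini-Hochberg adjustment. Fold changes on this scale understate the change of low genes. Ratios were tested with exact permutation tests (SciPy 1.17.1). The test was tried on simulated data. Members were matched to GENCODE 29. Described in full were members past the threshold or with a group mean of at least 5 FPKM, and the 4 companion genes per list with the smallest adjusted p. The members and lists were chosen with earlier results of these data known. Some results on single genes are not reported here. There were 15 alternatives, whose effects stand beside the results and in the closing section. Depth is known only in relative terms, from the commonest ratio of low values between libraries, which held 113 to 185 of 1187 to 1560 genes compared, so no counting intervals are given.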

Additional observations from a re-analysis of the deposited data

How the results depend on the processing

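The number of libraries, 3 per group, and the higher depth of all fluvastatin libraries limit these results. With relative depth as a covariate, 49 genes rose and 12 fell over all genes, and among members 1 rose (MMP1) and 0 fell. At an unadjusted p below 0.05 in limma 8 members rose and 0 fell in that fit. The unadjusted share over all genes was not counted, so these 8 cannot be weighed against it. Leaving out 1 library at a time gave 1274 to 1785 genes that rose and 1066 to 1631 that fell, and 8 to 11 members that rose and 1 to 2 that fell. Without a filter 11 members rose and 3 fell (1855 and 1643 of 29790 genes over all). With a mean of at least 5 FPKM 7 of 14 members rose and 0 fell (1711 and 1872 over all genes). At an unadjusted p below 0.05 in limma 9 and 0 of these 14 did so, and the unadjusted share over all genes was not counted. With quantile normalization 13 members rose and 2 fell (1942 and 2048 over all genes). With a trended, robust variance 12 members rose and 1 fell (2142 and 2184 over all genes). Deviations from the group mean correlated between same-numbered libraries of the 2 groups with r of -0.002, 0.085 and 0.084. Between differently numbered libraries r ran from -0.136 to 0.058. With the replicate number as a block 1658 genes rose and 1496 fell, and 9 members rose and 1 fell. ADAM10, at 0.01, had a log2 fold change of -0.05 without fluvastatin replicate 2, -0.01 without control replicate 0 and -0.04 with depth. ADAM9, at -0.04, had 0.02 with quantile normalization and 0.04 without fluvastatin replicate 0, and it ranged from -0.10 to 0.04 when 1 library was left out. The cause was not tested. A pseudocount of 0.1 FPKM, TMM scaling and leaving out RMRP kept every one of the 20 members described in full on its side of the threshold.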
